A study of Mus musculus with 6 samples.

Results

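The report concerns 10 genes found together in tumour macrophages: the complement genes C1qa, C1qb and C1qc, the microglia-associated genes Tmem119 and Olfml3, the surface receptor genes Cd72 and Mrc1, and the membrane protein genes Tmem176a, Tmem176b and Ms4a7. They were taken by symbol from a list, and all 10 were found among the 32285 genes measured in every sample. The genes were chosen by their cko and ctr expression values in these samples, so their differences between cko and ctr are given as a description and carry no p-value.

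Leukocytes positive for CD45 had been sorted from tumours and profiled by 10x droplet sequencing of 5′ transcript ends in single cells, with T cell receptors read from the same cells. The tumours were of wild-type MC38, a mouse colon adenocarcinoma line, grown under the skin for 25 days. The cko hosts (n = 3) carried a tamoxifen-inducible knockout of Ctcf whose loss is labelled for regulatory T (Treg) cells, and the ctr hosts (n = 3) had wild-type Ctcf in Treg cells. The labels call the samples of a group biological replicates and give neither the Cre driver, the tamoxifen given to each group, nor the age or sex of the mice, and the macrophages themselves were not the labelled target of the deletion.

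C1q is the recognition part of the classical complement pathway: its A, B and C chains assemble into one molecule that binds antibody complexes and dying cells and starts the cascade through the proteases C1r and C1s. Most plasma C1q is made by macrophages and immature dendritic cells, and high C1q transcripts are a common mark of mature tissue and tumour macrophages. Tmem119 and Olfml3 are best known from microglia, the macrophages of the brain, whereas Mrc1 encodes the mannose receptor CD206 of many tissue macrophages.

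The matrices held 45322797 to 55515267 UMIs (unique molecular identifiers, each standing for 1 captured transcript) per sample, and 37148 of 41679 barcodes were kept, 18733 in cko and 18415 in ctr samples. The T cells of cko replicates 1 and 3 shared 197 paired receptor clonotypes, held by 2311 of 2819 and 1997 of 2862 receptor-bearing cells, and no other pair shared more than 3. These libraries are labelled as separate replicates and are kept so here, but the files do not settle whether they came from separate animals, and counted as 1 sample they would leave n = 2 in cko. With their counts added, 1229 genes were called in macrophages, 292 in monocytes, 138 in cDC and 45 in T cells, against 1567, 683, 285 and 390 with the libraries apart. Any pair of libraries had 41 to 81 cell barcodes in common, with 71 between cko replicates 1 and 3. Ctcf in T cells with at least 2 Foxp3 UMIs was at 88.5, 59.4 and 55.4 CPM (UMIs of the gene scaled to a common total) in cko replicates 1 to 3 and at 78.5, 75.1 and 103 CPM in ctr replicates 1 to 3. The groups overlapped, on 22 to 28 Ctcf UMIs in each cko and 44 to 85 in each ctr sample, and 5′ reads outside the deleted part would not show the deletion, so this check says nothing on the genotype labels.

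Cells were gated by the UMIs of lineage marker genes, none of which is among the 10 genes. Mononuclear phagocytes had at least 4 UMIs of the macrophage markers Csf1r, Adgre1, Mertk, Cd68, Fcgr1 and Lgmn and next to none of T, NK or B cell markers. They were divided by the monocyte-marker fraction, which is the share of the UMIs of 8 monocyte genes, among them Ly6c2, Ccr2, Plac8 and Chil3, among all monocyte- and macrophage-marker UMIs. Cells under a fraction of 0.5 are called macrophages here, those from 0.8 monocytes, and those between intermediate. The fraction is continuous, so these are ranges rather than types, and 190 cko and 435 ctr cells lay within 0.05 of the limit of 0.5. Cells near the limit of 0.8 were not counted. This gave 552 macrophages, 1221 intermediate cells and 1781 monocytes in cko samples, against 1754, 2278 and 1630 in ctr samples. Conventional dendritic cells (cDC), which carry antigen to T cells, numbered 260 in cko and 453 in ctr samples, and T cells 9932 and 8098.

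All 6 macrophage markers were detected in the macrophage gate, which follows from the gate, as it selects on their UMIs. No gated macrophage had a TRB contig, which the gate did not use, although it limited T cell markers. Macrophages made up 20.5, 28.8 and 24.3% of macrophages plus monocytes in cko replicates 1 to 3, against 65.4, 43.8 and 51.0% in ctr replicates 1 to 3. The means of 24.5% ± 4.19 in cko and 53.4% ± 11.0 in ctr (SD, n = 3 each) did not overlap between samples (exact two-sided permutation test, p = 0.1, the smallest that 3 against 3 samples allow). Even inside the gate the macrophage markers were lower in cko, with summed levels of 1753 to 2535 CPM against 3598 to 3719 CPM in ctr, and the part of this difference in the results below was not tested. Plasma cell markers summed to 15.3 to 129 CPM in cko and 1.15 to 5.14 CPM in ctr macrophages. B cell markers summed to 4.58 to 8.22 CPM in cko and 16.6 to 25.8 CPM in ctr macrophages. Cell depth also differed, with a median of 6816 to 8202 UMIs per macrophage in cko and 8105 to 10308 in ctr samples.

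The microglia label was borne out only in part. Among the genes that define microglia, Sall1, the transcription factor that sets microglial identity, had 0 UMIs in the macrophages of all 6 samples, while Siglech had 4, Slc2a5 1, Crybb1 6, Ecscr 6 and Adgrg1 3. Other genes of the microglial list were present in macrophages, with Cx3cr1 at 50.4 to 299 CPM, Trem2 at 268 to 492 CPM and P2ry12 at 2.75 to 25.1 CPM over the 6 samples. The cells are therefore called macrophages that express C1q genes, and not microglia.

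The 3 C1q genes are neighbours on GRCm38 chromosome 4, all on the minus strand, in the order C1qb (ENSMUSG00000036905, 136880129 to 136886187), C1qc (ENSMUSG00000036896, 136889804 to 136893065) and C1qa (ENSMUSG00000036887, 136895917 to 136898803). The cluster spans 18675 bases with gaps of 3616 and 2851 bases between the genes, and no annotated gene overlaps them. Promoter windows were taken from RefSeq (GRCm38.p6, 250 bases before to 50 after the start) because these genes moved together in the samples. A script searched both strands for GAGGAA (reverse complement TTCCTC), a core of sites of the myeloid factor PU.1, and TGCTGA (reverse complement TCAGCA), a half-site of MAF factors, and matches are in capitals.
C1qb, chr4:136886151-136886450, minus strand: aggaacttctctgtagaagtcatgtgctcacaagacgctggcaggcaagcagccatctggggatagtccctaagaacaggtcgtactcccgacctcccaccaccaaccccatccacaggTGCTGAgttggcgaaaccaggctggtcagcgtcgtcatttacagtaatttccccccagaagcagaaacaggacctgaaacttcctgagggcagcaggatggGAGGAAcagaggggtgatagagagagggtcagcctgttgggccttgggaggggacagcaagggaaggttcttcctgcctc
C1qc, chr4:136892865-136893164, minus strand: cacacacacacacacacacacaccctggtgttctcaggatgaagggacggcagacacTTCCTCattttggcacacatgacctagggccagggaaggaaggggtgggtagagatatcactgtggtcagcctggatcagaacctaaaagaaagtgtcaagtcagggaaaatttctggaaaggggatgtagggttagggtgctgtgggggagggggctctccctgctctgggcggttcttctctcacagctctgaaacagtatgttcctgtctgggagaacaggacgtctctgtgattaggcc

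In the C1qb window GAGGAA started 30 bases before the start site and TGCTGA 131 bases before it. The C1qc window held 1 match, TTCCTC at 193 bases before the start site. Of 32851 promoter windows, 28.3% held the PU.1 letters and 19.5% the MAF letters, so either match is common. Windows were found for 8 of the 10 genes, of which 7 held the PU.1 letters in at least 1 window (Olfml3 did not) and 2, C1qb and Cd72, the MAF letters. Counted per window, as the share over all promoters is, 8 of their 12 windows held the PU.1 letters and 2 the MAF letters, and some of these windows overlap each other. The motifs do not overlap each other in these windows, and a match describes letters and not binding.

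Tmem176a (ENSMUSG00000023367, chromosome 6, 48840919 to 48847071, plus strand) and Tmem176b (ENSMUSG00000029810, 48833818 to 48841496, minus strand) lie head to head. Their annotated bodies overlap by 578 bases on opposite strands and their nearest start sites are 109 bases apart. The window of the upstream Tmem176a start, which therefore also covers a start of Tmem176b, is shown for that shared region, with TTCCTC in capitals 9 bases after the Tmem176a start.
Tmem176a, chr6:48841233-48841532, plus strand: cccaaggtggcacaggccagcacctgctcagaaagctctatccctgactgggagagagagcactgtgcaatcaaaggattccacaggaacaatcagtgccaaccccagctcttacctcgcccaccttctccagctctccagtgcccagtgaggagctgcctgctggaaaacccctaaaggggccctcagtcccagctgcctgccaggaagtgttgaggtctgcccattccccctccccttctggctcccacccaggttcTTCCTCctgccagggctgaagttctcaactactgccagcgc

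The other genes lie apart: Tmem119 (ENSMUSG00000054675) on chromosome 5 from 113793729 to 113800516, Olfml3 (ENSMUSG00000027848) on chromosome 3 from 103722222 to 103738001, Cd72 (ENSMUSG00000028459) on chromosome 4 from 43446462 to 43454628 and Ms4a7 (ENSMUSG00000024672) on chromosome 19 from 11321039 to 11336146, all on the minus strand, and Mrc1 (ENSMUSG00000026712) on chromosome 2 from 14229392 to 14332057 on the plus strand. Mir511 overlaps Mrc1 on the same strand, and Tesk1 overlaps Cd72 on the opposite strand over 1603 bases.

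The genes were lower in cko than in ctr macrophages with the exception of Mrc1. In 9 of the 10, every cko sample lay below every ctr sample, against 23% of the 9544 genes tested in macrophages, and this contrast was used to pick the genes, so nothing is read from that count. By the edgeR test 9.89% of those genes were higher and 6.53% lower in cko. Tmem119 and Olfml3 were lowest relative to ctr, and the C1q chains, Cd72, Ms4a7 and the Tmem176 pair stood between them and Mrc1.

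C1qa, the A chain gene, was at 1677, 1706 and 2462 CPM in the macrophages of cko replicates 1 to 3, against 5236, 5435 and 6419 CPM in those of ctr replicates 1 to 3. C1qb, the B chain gene, was at 2460, 2519 and 3437 CPM in cko and 6679, 6726 and 7882 CPM in ctr macrophages. C1qc, the C chain gene, was at 1310, 1390 and 2057 CPM in cko and 3663, 3920 and 4539 CPM in ctr macrophages. For each chain cko replicate 3 was the highest of its group and still below all ctr samples. The fitted log2 fold changes of cko over ctr were -1.46 for C1qa (SE 0.14), -1.25 for C1qb (SE 0.12) and -1.26 for C1qc (SE 0.15), beside a median of -0.02 over all genes tested. With the counts of cko replicates 1 and 3 added they were -1.48, -1.27 and -1.28.

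Tmem119 and Olfml3 showed the largest fold differences of the 10 genes. Tmem119, a transmembrane protein used to tell microglia from other macrophages, was at 10.4, 18.3 and 24.7 CPM in cko replicates 1 to 3, against 96.0, 120 and 100.5 CPM in ctr replicates 1 to 3. Olfml3, a secreted protein with an olfactomedin domain, was at 18.5, 12.8 and 42.2 CPM in cko and 105, 148 and 167 CPM in ctr macrophages. All cko samples lay far below all ctr samples for both, and cko replicate 3 was again the highest of its group. The log2 fold changes were -2.44 for Tmem119 (SE 0.20) and -2.34 for Olfml3 (SE 0.36), and leaving out cko replicate 3 moved that of Olfml3 to -3.03. With cko replicates 1 and 3 added they were -2.42 and -2.37.

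Cd72, a C-type lectin receptor best known from B cells, was at 116, 88.8 and 286 CPM in cko replicates 1 to 3, against 398, 619 and 756 CPM in ctr replicates 1 to 3. The groups did not overlap, but cko replicate 3 was closer to ctr replicate 1 than to the other cko samples, and the log2 fold change of -1.74 had an SE of 0.52. Ms4a7, a membrane protein of the Ms4a family used as a macrophage marker, was at 163, 133 and 419 CPM in cko and 588, 695 and 920 CPM in ctr macrophages, with a log2 fold change of -1.53 (SE 0.49). It had the same spread as Cd72, with cko replicate 3 well above the other cko samples. Without that replicate the log2 fold change was -2.41 for Cd72 and -2.20 for Ms4a7.

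Tmem176a and Tmem176b encode related membrane proteins distantly akin to the Ms4a family, and both are known in the mouse from dendritic cells. Tmem176a was at 71.2, 127 and 122 CPM in the macrophages of cko replicates 1 to 3 and at 288, 320 and 393 CPM in those of ctr replicates 1 to 3. Tmem176b was at 150.5, 171 and 238 CPM in cko and 584, 649 and 766 CPM in ctr macrophages. The neighbours thus moved alike, with log2 fold changes of -1.56 (SE 0.18) and -1.74 (SE 0.15). Mrc1 was at 89.0, 68.7 and 80.5 CPM in cko and 119, 52.1 and 101 CPM in ctr macrophages. The lowest sample of all was ctr replicate 2, the groups overlapped, and the log2 fold change was -0.09 (SE 0.32).

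**Figure D1:**
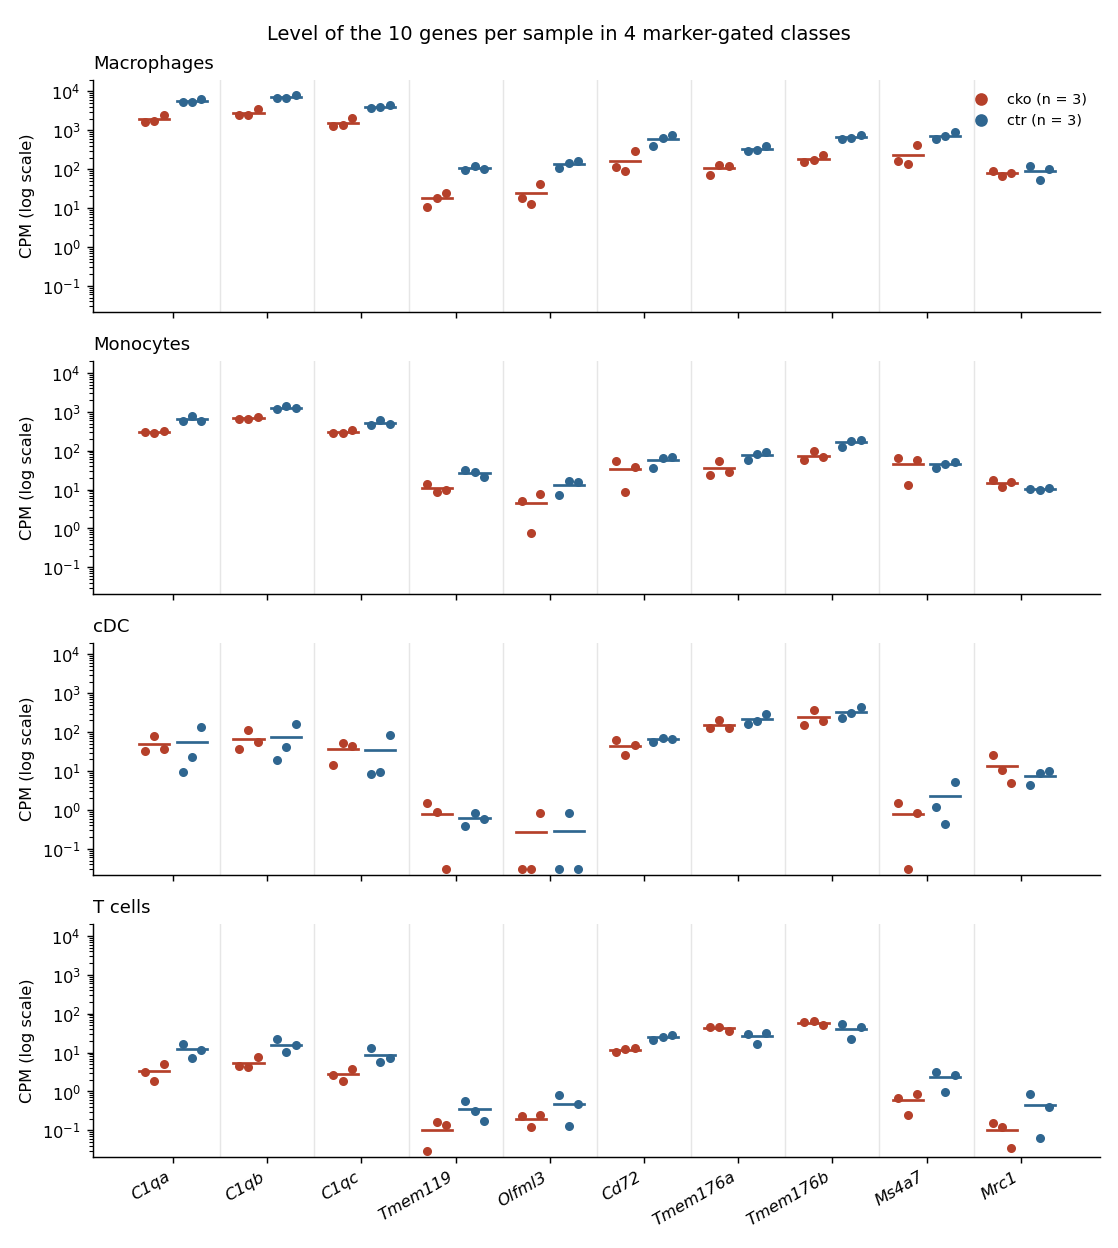
Level of each of the 10 genes in every sample (points; short lines are means of n = 3) in macrophages, monocytes, cDC and T cells, in CPM on a log scale, with values under 0.03 CPM drawn at 0.03. In macrophages the cko points lie below the ctr points for 9 genes and overlap for Mrc1. Tmem176a and Tmem176b are the genes that stay high in cDC, while their T cell points lie below their macrophage points.

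**Figure D2:**
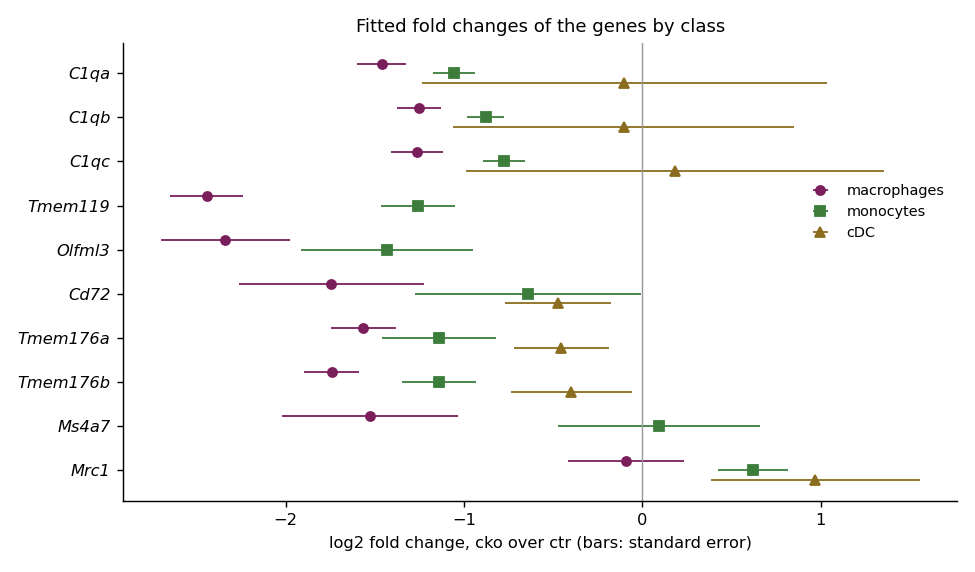
Fitted log2 fold changes of cko over ctr with their standard errors in macrophages, monocytes and cDC, for genes that passed the filter on low counts. Tmem119 at -2.44 and Olfml3 at -2.34 are the lowest in macrophages, Mrc1 lies near 0 in macrophages, and the C1q genes in cDC have standard errors of 0.95 to 1.17.

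The share of macrophages with a C1q UMI and the number of C1q UMIs per positive cell were both lower in cko. After each cell was thinned to 3000 UMIs (94 of 552 cko and 232 of 1754 ctr macrophages were shallower and left out), at least 1 UMI of any C1q gene was found in 67.5, 67.3 and 73.7% of macrophages of cko replicates 1 to 3. The share was 88.2, 86.9 and 89.9% in ctr replicates 1 to 3, above all cko samples. Among the positive cells the median was 20, 20 and 27 C1q UMIs in cko, against 53, 52 and 67 in ctr samples. Cells with 20 or more C1q UMIs made up 34.4, 34.6 and 46.4% of macrophages in cko and 72.0, 73.6 and 76.4% in ctr. Thus the positive cells of cko had fewer C1q UMIs, and a larger share of gated cells had no C1q UMI at this depth. A cell with no UMI may still express the genes, and fewer transcripts per cell also leave more cells with none, so these differences cannot be told apart.

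The thinned shares for single genes went the same way. C1qa was found in 59.8% ± 4.98 of macrophages in cko and 83.6% ± 2.12 in ctr samples, and Tmem119 in 4.98% ± 2.61 and 22.6% ± 1.38 (SD, n = 3 each). Without thinning, Tmem119 was found in 8.61% ± 2.81 of cko and 38.7% ± 1.97 of ctr macrophages. As a background, C1qa was found in 1.08% ± 0.459 of thinned T cells in cko and 3.50% ± 1.51 in ctr samples, where median depths were 6048 to 6787 and 5852 to 7167 UMIs. The macrophage shares stood far above that background in both groups, while the background itself was lower in cko.

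Within single macrophages the C1q chains varied together. Across macrophages of a sample, the Pearson correlation of log-scaled levels was 0.898 to 0.939 for pairs of C1q genes over the 6 samples and 0.632 to 0.781 for Tmem176a with Tmem176b. The summed C1q level correlated less with the other genes, from 0.266 to 0.575 with Ms4a7 and 0.248 to 0.527 with Cd72 down to 0.0491 to 0.268 with Mrc1 and 0.0151 to 0.298 with Tmem119. These correlations are over cells that share a library and its depth and differ in counting noise, most of all for the low counts of Tmem119.

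In monocytes the C1q genes differed in the same direction, at lower levels and with smaller fold differences than in macrophages. C1qa was at 296, 279 and 328 CPM in monocytes of cko replicates 1 to 3, against 572, 766 and 589 CPM in those of ctr replicates 1 to 3. C1qb was at 655, 648 and 742 CPM in cko and 1184, 1443 and 1236 CPM in ctr monocytes, and C1qc at 287, 279 and 332 CPM in cko and 464, 617 and 494 CPM in ctr monocytes. No cko sample reached a ctr sample for any chain, and the log2 fold changes were -1.06 for C1qa (SE 0.12), -0.88 for C1qb (SE 0.10) and -0.77 for C1qc (SE 0.12). At least 1 C1q UMI was found in 34.8, 32.3 and 38.1% of thinned monocytes in cko and 45.2, 48.6 and 43.1% in ctr samples.

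Of the other genes, Tmem119, Tmem176a and Tmem176b also had all cko monocyte samples below all ctr samples. This makes 6 of the 10 genes, beside 16% of the 9682 genes tested. The genes were chosen by their cko and ctr values, so nothing is read from that count. Tmem119 was at 13.9, 8.85 and 9.53 CPM in cko and 31.4, 29.0 and 21.6 CPM in ctr monocytes, a log2 fold change of -1.26 (SE 0.21). Its cko levels in monocytes overlapped those in cko macrophages, unlike in ctr samples, but the latter rest on 14, 20 and 45 UMIs in cko replicates 1 to 3. Tmem176a was at 24.2, 55.0 and 28.6 CPM in cko and 57.5, 81.3 and 91.7 CPM in ctr monocytes, and Tmem176b at 56.1, 96.9 and 68.9 CPM in cko and 124, 176 and 193 CPM in ctr monocytes.

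The remaining 4 genes did not follow that order. Olfml3 was at 5.03, 0.769 and 7.53 CPM in cko and 7.35, 17.03 and 15.95 CPM in ctr monocytes, and Cd72 at 55.2, 8.85 and 37.8 CPM in cko and 35.1, 65.5 and 69.2 CPM in ctr monocytes, both overlapping. Ms4a7 was at 64.5, 13.1 and 58.0 CPM in cko and 36.7, 46.8 and 52.3 CPM in ctr monocytes, with cko replicate 2 the lowest and cko replicates 1 and 3 the highest samples. Mrc1 had all cko samples above all ctr samples, at 17.4, 11.9 and 16.1 CPM in cko and 10.2, 9.73 and 11.3 CPM in ctr monocytes (log2 fold change 0.62, SE 0.20). That order was seen in 10.9% of the 9682 genes tested in monocytes. The direction of Cd72 rested on where monocytes begin: it was -0.64 (SE 0.63) from a fraction of 0.8 and 0.43 from 0.9, while Ms4a7 was 0.09 and 1.07, and the 0.9 limit was chosen after seeing the data.

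The 10 genes were then set along the monocyte-marker fraction in 5 equal steps, which compares cko and ctr cells of like marker balance. C1qa was at 2709, 2728 and 4031 CPM in cko and 6907, 8024 and 8914 CPM in ctr samples in the step of lowest fraction (0 to 0.2), on 42 to 89 cko and 247 to 321 ctr cells. In the step of highest fraction (0.8 to 1) it was at 296, 279 and 328 CPM in cko and 572, 766 and 589 CPM in ctr samples. C1qa was lower in the highest than in the lowest step in all 6 samples, and all cko samples lay below all ctr samples in each of the 5 steps, with a ratio of means of 0.373 to 0.519. For C1qb, C1qc, Tmem119, Tmem176a and Tmem176b all cko samples likewise lay below all ctr samples in each step. The share of all genes with this order was 23% in macrophages and 16% in monocytes and was not taken for each step. The genes were chosen on the same contrast, so these values describe where the difference lies and nothing more.

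Tmem119 was at 18.3, 5.52 and 35.1 CPM in cko and 115, 165 and 128 CPM in ctr samples in the lowest step, and at 13.9, 8.85 and 9.53 CPM in cko and 31.4, 29.0 and 21.6 CPM in ctr samples in the highest. Its decline along the fraction was thus plain in ctr samples, while the cko samples stayed between 5.52 and 35.1 CPM with no steady order. The cko levels rest on few UMIs, with 8, 2 and 25 in the lowest step and 5, 6 and 6 in the second for replicates 1 to 3. Whether Tmem119 declined in cko therefore cannot be judged. Mrc1 was highest in the lowest step in each ctr sample, at 163, 71.8 and 137 CPM in ctr replicates 1 to 3. All its cko samples lay above all ctr samples in the second step, at 94.2, 103 and 93.6 CPM in cko and 57.2, 41.3 and 76.6 CPM in ctr samples. The share of all genes with that order was not taken for this step.

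**Figure D3:**
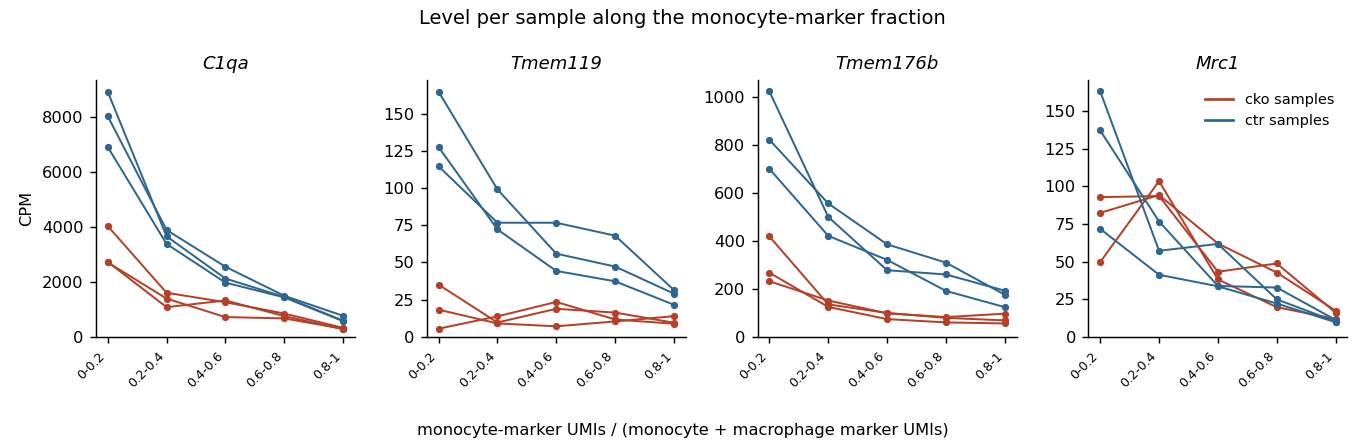
Levels of C1qa, Tmem119, Tmem176b and Mrc1 in CPM in each sample (lines) over 5 steps of the monocyte-marker fraction, from macrophage-like on the left to monocyte-like on the right. C1qa is lower in the last than in the first step in all samples and the cko lines stay below the ctr lines in each step, whereas the lines of Mrc1 cross.

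The proportion of the C1q chains was not fixed across the fraction. Macrophages held 1.47, 1.48 and 1.40 C1qb UMIs per C1qa UMI in cko replicates 1 to 3, against 1.28, 1.24 and 1.23 in ctr replicates 1 to 3. Intermediate cells held 1.92, 1.83 and 1.76 in cko and 1.68, 1.57 and 1.71 in ctr samples, and monocytes 2.22, 2.33 and 2.27 in cko and 2.07, 1.88 and 2.10 in ctr samples. In all 6 samples the ratio was lowest in macrophages and highest in monocytes, and in each of these classes all cko samples lay above all ctr samples. C1qc per C1qa followed, at 0.781, 0.815 and 0.836 in cko and 0.6995, 0.721 and 0.707 in ctr macrophages, and 0.971, 1.00 and 1.01 in cko and 0.812, 0.806 and 0.839 in ctr monocytes. In T cells the C1qb ratio was 1.46, 2.36 and 1.5 in cko and 1.29, 1.40 and 1.30 in ctr samples, on 44 to 429 C1qa UMIs. The ratios are a description noticed in the data, on at least 724 C1qa UMIs in each sample of macrophages, intermediate cells and monocytes, and were not tested.

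**Figure D4:**
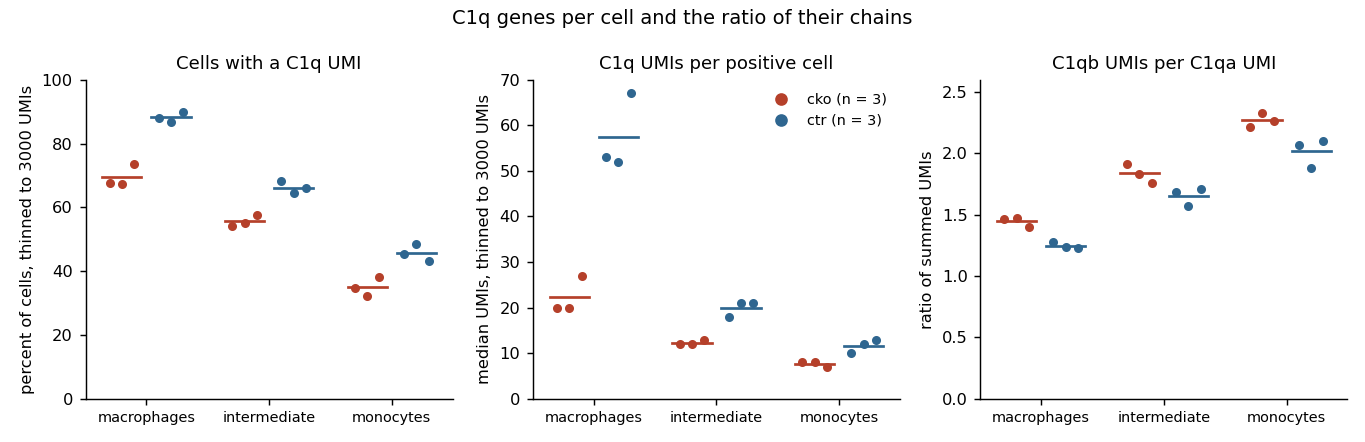
Percent of cells with at least 1 UMI of any C1q gene, median C1q UMIs of those cells, both after thinning to 3000 UMIs, and C1qb UMIs per C1qa UMI, for each sample (points, lines are means of n = 3) in macrophages, intermediate cells and monocytes. The percent and the median are lower in monocytes than in macrophages and lower in cko than in ctr, while the ratio is 1.23 to 1.48 in macrophages and 1.88 to 2.33 in monocytes and higher in cko.

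Macrophages were next set against monocytes and cDC of the same samples, with the sample as a block, over all genes. Over the 6 samples together, macrophages had more of all 10 genes than monocytes. The log2 differences were 1.58 (Tmem119, SE 0.27, edgeR adjusted p = 0.00332) to 3.23 (Ms4a7, SE 0.44, adjusted p = 0.00344), where 16% of the 9777 genes tested were called higher in macrophages. Tmem119 did not keep this order in cko replicate 1, with 13.9 CPM in monocytes and 10.4 CPM in macrophages, the latter on 14 UMIs. Its monocyte level was 48.3 and 38.7% of the macrophage level in cko replicates 2 and 3, and 21.5 to 32.7% in ctr samples. For the C1q genes the log2 differences were 2.87 for C1qa (SE 0.11, edgeR adjusted p = 7.03e-08), 2.20 for C1qb (SE 0.09, adjusted p = 9.20e-09) and 2.62 for C1qc (SE 0.12, adjusted p = 5.50e-07). Mrc1, whose cko and ctr macrophage samples overlapped, was 2.63 higher on the log2 scale in macrophages (SE 0.14, adjusted p = 3.43e-08). The gates used none of the 10 genes, but the genes had been listed as macrophage genes, so the direction was not an open question.

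Against cDC, C1qa, C1qb, C1qc, Cd72 and Mrc1 were called higher in macrophages, as were 25.9% of the 8424 genes tested. The log2 differences were 6.38 for C1qa (SE 0.73, edgeR adjusted p = 0.000817), 3.15 for Mrc1 (SE 0.34, adjusted p = 0.000109) and 2.62 for Cd72 (SE 0.35, adjusted p = 0.000759). Tmem119, Olfml3 and Ms4a7 were also called, but their counts in cDC were too near 0 for a fold to be given. These genes did not pass the filter within cDC and entered through their macrophage counts, so nothing is read from their calls. The genes had been listed as macrophage genes, so here too a higher level in macrophages was not an open question. Tmem176a and Tmem176b were the exceptions, with log2 differences of 0.19 (SE 0.24, adjusted p = 0.543) and 0.51 (SE 0.32, adjusted p = 0.231). Leaving out cko replicate 2 called Tmem176b (0.80, adjusted p = 0.0121), and over the other settings its adjusted p was 0.124 to 0.436.

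In cDC the genes fell into those near absence, those that varied by sample and the Tmem176 pair. Olfml3 had 0, 0 and 1 UMI in cDC of cko replicates 1 to 3 and 0, 2 and 0 UMIs in those of ctr replicates 1 to 3, and Tmem119 and Ms4a7 had 9 or fewer in any sample. C1qa was at 32.7, 81.8 and 37.1 CPM in cko and 9.37, 23.7 and 139 CPM in ctr cDC, so that ctr samples 1 and 3 were the lowest and the highest of all 6. At least 1 C1q UMI was found in 8.33, 12.8 and 13.7% of thinned cDC in cko and 12.99, 9.33 and 11.7% in ctr samples, and leaving out ctr replicate 3 gave a log2 fold change of C1qa of 1.63, against -0.10 with all samples. Macrophage markers summed to 445.5 to 468 CPM in cko and 242 to 429 CPM in ctr cDC, and their part in these values was not tested. None of the 10 genes had groups that did not overlap in cDC, where all cko below all ctr samples was seen in 12.5% and the reverse in 10% of the 8173 genes tested.

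Tmem176a was at 125, 211 and 129 CPM in cko and 158, 193 and 302 CPM in ctr cDC, and Tmem176b at 156, 372 and 195 CPM in cko and 226, 307 and 433 CPM in ctr cDC. The groups overlapped, with log2 fold changes of -0.45 (SE 0.27) and -0.40 (SE 0.34), and Tmem176a was higher in cDC than in macrophages of the same sample in all 3 cko samples. Cd72 was at 62.4, 25.2 and 47.0 CPM in cko and 57.0, 72.8 and 67.7 CPM in ctr cDC. Mrc1 was at 26.0, 10.4 and 4.95 CPM in cko and 4.29, 8.89 and 9.83 CPM in ctr cDC, where cko replicate 1 alone stood above the rest.

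T cells, which do not make C1q, served as a check of free RNA. Their gate allowed at most 1 macrophage-marker UMI per cell. T cells with more macrophage RNA were thus left out, and the level that free RNA reaches may be higher. C1qa was at 3.18, 1.80 and 5.10 CPM in T cells of cko replicates 1 to 3 and at 17.02, 7.43 and 11.9 CPM in those of ctr replicates 1 to 3. This was 0.106 to 0.325% of the level in macrophages of the same sample, and C1qb and C1qc stood at 0.154 to 0.329% and 0.136 to 0.368%. The monocyte levels of C1qa, at 9.17 to 17.6% of the macrophage level, were far above this, and those of cDC, at 0.179 to 4.79%, reached down to it. Of the 10 genes, 6 had all cko T cell samples below all ctr samples, beside 12.4% of the 12726 genes tested. The 6 include Tmem119, which did not pass the filter on low counts in T cells and is outside that share. The genes were chosen by their cko and ctr values, so nothing is read from that count. For the C1q genes the T cell background was itself lower in cko. Olfml3, Ms4a7, Mrc1 and Tmem119 were likewise near absent from T cells, with a median over samples of 0.178 to 0.667% of the macrophage level.

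Cd72, Tmem176a and Tmem176b stood above that background. Cd72 was at 10.4, 12.3 and 13.2 CPM in T cells of cko and 21.2, 24.7 and 27.7 CPM in those of ctr samples, which was 3.66 to 13.8% of the macrophage level. Every cko sample lay below every ctr sample, as in macrophages, while B cell markers in the T gate summed to 1.57 to 6.36 CPM in cko and 3.33 to 5.08 CPM in ctr samples. Tmem176a was at 44.9, 45.6 and 36.7 CPM in T cells of cko and 30.7, 16.3 and 32.2 CPM in those of ctr samples, so that here all cko samples lay above all ctr samples, as was seen for 14.8% of the genes tested. With 1 small subset of T cells left out, the groups overlapped, at 19.4, 15.03 and 19.97 CPM in cko and 22.6, 15.3 and 20.9 CPM in ctr samples, so the difference was not one of T cells at large. Tmem176b was at 60.1, 65.3 and 51.6 CPM in cko and 53.5, 22.5 and 45.1 CPM in ctr T cells, and overlapped.

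**Figure D5:**
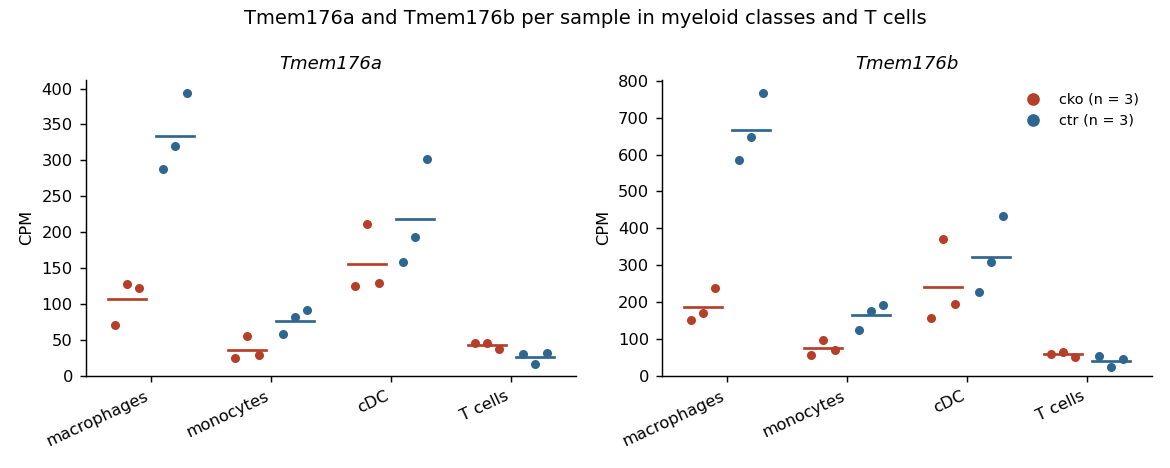
Tmem176a and Tmem176b in CPM for each sample (points, lines are means of n = 3) in macrophages, monocytes, cDC and T cells. The cko points lie below the ctr points in macrophages and monocytes and overlap them in cDC, and in T cells they lie above the ctr points for Tmem176a and overlap for Tmem176b.

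Across the 24 sums of 6 samples by 4 classes, the genes outside the list most like the mean of C1qa, C1qb and C1qc on the log2 CPM scale were Cxcl14 (Pearson r = 0.976), Adgre1 (0.969), C3ar1 (0.968), Apobec1, Ccl12, Atp6ap1, Hebp1 and Slc11a1 (0.960), out of 7398 genes. Adgre1 encodes the macrophage antigen F4/80 and was one of the gate markers. Of the other listed genes, Tmem119 (0.962), Ms4a7 (0.959) and Olfml3 (0.950) were close to the C1q mean, Mrc1 (0.881) and Cd72 (0.771) less so, and Tmem176b (0.619) and Tmem176a (0.478) least. The sums share libraries and gates, and most of the likeness is between classes, so these values are a description.

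The rest of the complement system did not follow C1q in 1 direction. Of 25 other complement genes, 16 passed the filter on low counts in macrophages, of which 3 rose, 3 fell and 10 did not pass the test, with a median log2 fold change of -0.10 beside -0.02 over all genes; 16.4% of the 9544 genes tested were called. Cfp, which encodes properdin, the stabiliser of the alternative pathway, rose to 439 ± 45.4 CPM in cko, against 274 ± 22.5 CPM in ctr macrophages (SD, n = 3 each; log2 0.77, SE 0.12, edgeR adjusted p = 0.000454). C3, the central component, rose to 389 ± 78.9 CPM in cko, against 283 ± 14.7 CPM in ctr (log2 0.56, SE 0.14, edgeR adjusted p = 0.0158), and Itgax, a chain of complement receptor 4, by 0.74 (SE 0.18, adjusted p = 0.0134). C3ar1, the receptor of the fragment C3a, fell to 157 ± 36.6 CPM in cko, against 354 ± 79.3 CPM in ctr macrophages (log2 -1.08, SE 0.18, edgeR adjusted p = 0.00111). Cfb, factor B of the alternative pathway, fell by 0.80 (SE 0.18, adjusted p = 0.00816) and C1qbp, a mitochondrial protein that binds C1q, by 0.47 (SE 0.13, adjusted p = 0.0202).

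C1ra, the protease that works next to C1q, was at 17.6 ± 3.17 CPM in cko and 16.9 ± 3.76 CPM in ctr macrophages (log2 0.12, SE 0.24, edgeR adjusted p = 0.787), and Serping1, the inhibitor of C1, at 0.183 and 0.464 CPM did not pass the filter. In monocytes Cfp alone rose of the 16 complement genes tested (log2 0.46, SE 0.11, edgeR adjusted p = 0.0169), and none fell. Of the 9682 genes tested in monocytes 7.05% were called, 4.12% higher and 2.93% lower in cko. In cDC C3 rose to 77.7 ± 23.5 CPM in cko, against 14.1 ± 5.66 CPM in ctr (log2 2.51, SE 0.31, edgeR adjusted p = 0.00212), as the only call among 11 genes tested, where 3.49% of the 8173 genes tested were called, 2.67% higher and 0.82% lower in cko. In T cells 1 of 13 complement genes was called, Itgax, which fell (log2 -0.84, SE 0.10, edgeR adjusted p = 0.0117), where 3.06% of all genes tested were called, 1.08% higher and 1.99% lower in cko. The macrophage call of C3 was lost with cko replicates 1 and 3 added together and without cko replicate 1, cko replicate 3, ctr replicate 2 or ctr replicate 3, and that of C1qbp with the replicates added and without cko replicate 1 or ctr replicate 2. Those of Itgax and Cfb were lost without cko replicate 1, and that of Cfb also with macrophages taken up to a fraction of 0.6. The monocyte call of Cfp was lost without cko replicate 1, ctr replicate 2 or ctr replicate 3 and from a fraction of 0.9, the cDC call of C3 with the stricter gate, and the T cell call of Itgax with the replicates added and without cko replicate 1 or ctr replicate 3.

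Genes of the microglial list other than Tmem119 and Olfml3 fell where they were called. Of 16 such genes, 9 were tested in macrophages and 5 fell, with none that rose. The median log2 fold change was -1.07, beside -0.02 over all genes. Of all genes tested in macrophages, 6.53% were called lower and 9.89% higher in cko. P2ry12, the purinergic receptor of resting microglia, fell to 3.79 ± 1.09 CPM in cko, against 23.0 ± 3.13 CPM in ctr macrophages (SD, n = 3 each; log2 -2.44, SE 0.28, edgeR adjusted p = 4.42e-05). Trem2, a lipid receptor of macrophages, fell by 0.58 (SE 0.12, adjusted p = 0.00288). P2ry13 and Tgfbr1 fell by 1.86 (adjusted p = 0.0209) and 0.61 (adjusted p = 0.0249), and each lost its call when 1 of 3 replicates was left out (cko replicate 2, cko replicate 3 or ctr replicate 3 for P2ry13, and cko replicate 1, ctr replicate 2 or ctr replicate 3 for Tgfbr1). Cx3cr1, the fractalkine receptor, was at 76.3 ± 44.9 CPM in cko and 254 ± 76.3 CPM in ctr macrophages and did not pass (log2 -1.61, SE 0.44, edgeR adjusted p = 0.0737). None of 7 genes of this list was called in T cells, where 3.06% of all genes tested were called. In monocytes 3 of 8 genes tested fell, where 2.93% of all genes tested were called lower. Among them were Selplg (log2 -0.41, SE 0.11, edgeR adjusted p = 0.0370) and Crybb1 (log2 -1.32, SE 0.33, adjusted p = 0.0259). Leaving out cko replicate 1, cko replicate 3, ctr replicate 2 or ctr replicate 3 ended both of these monocyte calls, as did leaving out cko replicate 2 for Selplg.

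Genes of tissue-resident macrophages, the list Mrc1 would belong to, were split. Of 18, 9 were tested in macrophages, 3 rose and 3 fell, where 9.89% of all genes tested were called higher and 6.53% lower in cko. Mgl2, a galactose-binding lectin, rose to 533 ± 156 CPM in cko, against 140 ± 19.5 CPM in ctr macrophages (SD, n = 3 each; log2 2.02, SE 0.20, edgeR adjusted p = 8.56e-05), and the scavenger receptors Cd36 and Msr1 rose by 1.93 (adjusted p = 0.000519) and 1.07 (adjusted p = 0.000191). Selenop, a selenium carrier, fell to 124 ± 32.4 CPM in cko, against 402 ± 45.9 CPM in ctr (log2 -1.60, SE 0.17, edgeR adjusted p = 3.05e-05), and Stab1 and Pf4 fell by 1.04 (adjusted p = 0.00895) and 0.75 (adjusted p = 0.00164). Cd163, Lyve1, Marco and Cd209f had no UMI in macrophages. In monocytes Mgl2 (log2 1.11, SE 0.18, edgeR adjusted p = 0.00236) and Msr1 rose and Selenop and Stab1 fell, of 7 tested. In cDC Msr1 rose and Cd36 fell, of 7 tested, and in T cells Selenop rose and Stab1 fell, of 5 tested. Of all genes tested in monocytes, 4.12% were called higher and 2.93% lower in cko. These shares were 2.67% and 0.82% in cDC and 1.08% and 1.99% in T cells. The macrophage call of Stab1 was lost without cko replicate 1. In monocytes the call of Stab1 was lost without cko replicate 1, cko replicate 3, ctr replicate 1 or ctr replicate 2, that of Selenop without cko replicate 1 or ctr replicate 3, and that of Mgl2 from a fraction of 0.9 and with the stricter gate. In cDC the call of Msr1 was lost without cko replicate 3 or ctr replicate 3, and that of Cd36 without cko replicate 1, cko replicate 3, ctr replicate 1 or ctr replicate 3. In T cells the call of Selenop was lost when any 1 sample was left out, and that of Stab1 without cko replicate 1 or cko replicate 3.

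Of 8 other Ms4a genes tested in macrophages 3 fell and none rose: Ms4a6b by 0.71 (SE 0.13, edgeR adjusted p = 0.00168), Ms4a6c by 0.61 (SE 0.12, adjusted p = 0.00295) and Ms4a4c by 0.60 (SE 0.18, adjusted p = 0.037). None of 7 was called in monocytes and none of 6 in cDC or in T cells. Of all genes tested in macrophages, 6.53% were called lower and 9.89% higher in cko. In either direction 7.05% were called in monocytes, 3.49% in cDC and 3.06% in T cells. Of 14 macrophage transcription factors, Tfec (log2 1.40, SE 0.22, edgeR adjusted p = 0.000496), Runx3 (0.81) and Cebpb (0.37) rose and Pparg (-1.36), Maf (-0.96) and Cebpa (-0.91) fell. Maf, whose family's half-site was searched above, was at 49.2 ± 21.4 CPM in cko and 105 ± 13.8 CPM in ctr macrophages (SE 0.23, edgeR adjusted p = 0.0170). Spi1, which encodes PU.1, was at 354 ± 51.9 CPM in cko and 499 ± 85.9 CPM in ctr macrophages and did not pass (log2 -0.41, SE 0.14, adjusted p = 0.0552). In monocytes Tfec rose and Cebpa fell, of 13 tested, where 4.12% of all genes were called higher and 2.93% lower in cko. In cDC 3 of 10 tested rose, where 2.67% of all genes were called higher. Among them were Cebpb (log2 1.31, SE 0.25, edgeR adjusted p = 0.0288) and Runx3 (log2 0.66, SE 0.16, adjusted p = 0.0466). The cDC calls of Cebpb and Runx3 were lost without cko replicate 1 or ctr replicate 2, that of Cebpb also without cko replicate 2, and that of Runx3 also without cko replicate 3, ctr replicate 1 or ctr replicate 3. None of 12 was called in T cells. The monocyte call of Tfec was lost without cko replicate 1 or cko replicate 3 and that of Cebpa from a fraction of 0.9, and the macrophage call of Maf without cko replicate 1. Those of Ms4a4c, Pparg and Cebpb were lost with cko replicates 1 and 3 added together and without cko replicate 1, cko replicate 2, ctr replicate 2 or ctr replicate 3, and that of Cebpb also without cko replicate 3.

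Genes induced by tissue dissociation and heat shock also differed between the groups. In macrophages 6 of 12 fell, led by Hspa1b (log2 -1.56, SE 0.26, edgeR adjusted p = 0.00565), Hspa1a (-1.40) and Jun (-1.06), and 1, Fosb, rose (0.88, adjusted p = 0.000302). In monocytes 6 fell and in cDC 7 fell, with none that rose, and in T cells 1, Dusp1, fell, of 12 tested in each class. Of all genes tested, 6.53% were called lower in macrophages, 2.93% in monocytes, 0.82% in cDC and 1.99% in T cells. Called higher in macrophages were 9.89%. The monocyte call of Junb was lost without cko replicate 1, cko replicate 3, ctr replicate 2 or ctr replicate 3, and that of Dnajb1 from a fraction of 0.9. In cDC the calls of Hspa1a and Hspa1b were kept in all 13 alternatives, while leaving out cko replicate 1 or cko replicate 3 ended those of Dnajb1, Jun, Egr1 and Ier2. Leaving out cko replicate 2 also ended those of Dnajb1 and Egr1, ctr replicate 1 those of Dnajb1, Jun and Ier2, and ctr replicate 3 those of Jun and Ier2. The T cell call of Dusp1 was lost without cko replicate 1, cko replicate 3, ctr replicate 1 or ctr replicate 3. Their part in the C1q results was not tested.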

How the data were processed

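Raw UMI counts per gene and barcode were deposited as matrices made by the authors with Cell Ranger 7.0.0 on GRCm38 (mm10), per the submitters' processing notes. The deposited contig tables, which hold counts of UMIs per receptor chain, served to compare clonotypes. Nothing in the labels records removal of doublets or free RNA. Cells with at least 300 genes, 500 UMIs and at most 10% mitochondrial counts were kept. Scrublet's automatic threshold (scanpy 1.11.5) marked 147 barcodes, 0.353%, which is not a working call, so the highest-scoring 0.8% per 1000 barcodes, 2276 cells, were removed. Myeloid gates used at least 4 macrophage-marker UMIs (and at most 2 cDC-marker UMIs), or at least 2 cDC markers. They allowed at most 1 T, NK or B marker UMI and at most 3 neutrophil-marker UMIs. T cells had at least 3 T-marker UMIs, at most 1 macrophage or B marker UMI and at most 3 neutrophil-marker UMIs. A further 256 cko and 492 ctr myeloid cells fell between gates. Gate limits were set after the data were seen, and the genes and lists were chosen with earlier results of these data known.

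UMIs were summed per sample and class. CPM is relative to all UMIs of the class in the sample. Sums were tested with edgeR 4.0.16 (quasi-likelihood, TMM, filterByExpr, robust; R 4.3.3), with Benjamini-Hochberg adjustment over all genes and a threshold of 0.05, gate markers left out. SE is the fold change divided by the square root of its F. The script was tested on simulated data. DESeq2 1.42.0 was an alternative. All 10 genes passed the filter in macrophages and monocytes, 7 in cDC and 7 in T cells. Named list genes are up to 6 per list and direction past the threshold by fold change, otherwise up to 3 by level, and 8 genes by likeness. Some genes of the lists and markers, and 1 T cell subset, are not reported here. Thinning drew 3000 UMIs per cell. Replicates are biological per the labels, and each p-value takes 3 samples a group as separate, which the clonotypes shared by cko replicates 1 and 3 leave in doubt. Likeness used log2 CPM with a prior count of 1. Same-numbered samples did not pair: correlations of their deviations from the group means were -0.12 to 0.13.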

Additional observations from a re-analysis of the deposited data

Results flagged for a closer look

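Tmem176a went in opposite directions by cell class, which flagged it. In T cells the mean was 42.4 CPM in cko and 26.4 CPM in ctr samples, a ratio of 1.61 with every cko sample above every ctr sample. In macrophages the means were 107 CPM in cko and 334 CPM in ctr (ratio 0.319), and in monocytes 35.9 CPM in cko and 76.9 CPM in ctr (ratio 0.467), with every cko sample below every ctr sample. In cDC the groups overlapped for this gene. With 1 small subset of T cells left out the T cell means were 18.1 CPM in cko and 19.6 CPM in ctr and the groups overlapped, so the higher level was not one of T cells at large. The difference between T cells and the myeloid classes was not tested.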

How the results depend on the processing

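No listed gene that had all cko samples on one side of all ctr samples changed direction in macrophages under any alternative run. As the groups of such genes do not overlap, leaving out a sample or adding cko replicates 1 and 3 could hardly turn them. Nothing is therefore read from their direction in those runs. Mrc1 lay between -0.40 and 0.14 (log2) in macrophages. C1qa lay between -1.65 and -1.37 in macrophages and between -1.18 and -0.92 in monocytes. In cDC C1qa, C1qb and C1qc moved to 1.63, 1.14 and 2.07 without ctr replicate 3. The count of genes called depended on single libraries. It was 1567 in macrophages and 837 to 1887 with 1 replicate left out. It was 683 in monocytes, 262 to 828 with 1 left out, 1123 with no filter on low counts, 292 with cko replicates 1 and 3 added together and 164 with monocytes taken from a fraction of 0.9. It was 285 in cDC, 117 to 556 with 1 left out, 553 with no filter, 138 with those replicates added and 150 with the stricter gate. It was 390 in T cells, 36 to 848 with 1 left out, 45 with those replicates added and 889 with DESeq2. Macrophages over monocytes gave 3283 calls (2397 to 3318 with 1 left out) and over cDC 4276 (3605 to 4359). The difference in macrophage share was -28.9 points and -33.7 to -22.9 with 1 left out. The limits of 0.4, 0.6, 0.7 and 0.9 on the marker fraction were added after seeing the data. Of 33 named list genes in macrophages 20 kept their call under every alternative run, of 16 in monocytes 5, of 13 in cDC 2 and of 4 in T cells 0. Same-numbered samples did not pair, and the fit with replicate block gave 1610 calls in macrophages, 531 in monocytes, 353 in cDC and 277 in T cells. The 130 macrophages of cko replicate 2 limit what its values can show.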
